A study of Mus musculus with 12 samples.

Results

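At day 3 after wounding, 3 libraries of skin wounds that had received capsaicin (CAP) in a gel were compared with 3 libraries of wounds that had received the gel alone (the sham group). These are 6 of the 12 RNA-seq libraries of the series, and the comparison used every gene with a mean of at least 0.3 TPM, a transcript level corrected for gene length and library total, in both groups, which left 18330 of 55487 listed genes. The mice were C57BL/6JNarl males of 6 weeks without any genetic change, and each carried 2 full-thickness wounds of 6 mm on the back under a dressing. Each wound received 200 µL of 25% Pluronic F127 gel once a day, with 10 µM CAP in the CAP group and without it in the sham group (the labels and methods give the dose in µM, and one passage of the study writes mM), and skin tissue of the wound was taken for the libraries. The sources used here do not state whether libraries of a group shared a mouse, so p-values measure only the spread between these libraries, which may be technical.

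Capsaicin is the pungent compound of chili peppers and opens TRPV1, a cation channel best known from the endings of pain-sensing neurons, which can release neuropeptides into the skin. A mouse skin wound at this stage is in its inflammatory phase: neutrophils and monocytes enter from the blood, keratinocytes migrate over the bed, and fibroblasts begin to lay down collagen. Back skin of the mouse also holds a thin sheet of skeletal muscle, the panniculus carnosus, which is cut by a full-thickness wound. In whole tissue, fewer cells of a type and less RNA per cell cannot be told apart.

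The markers of skin tissue were high in all 6 libraries. Krt14, a keratin of the basal epidermis, ranged from 10069 to 20003 TPM. Col1a1, the main chain of type I collagen, ranged from 2704 to 6896 TPM, and Acta1, the actin of skeletal muscle, from 1068 to 3041 TPM. Adipoq, a hormone of fat cells, ranged from 12.5 to 35.4 TPM and Ptprc, the pan-leukocyte antigen CD45, from 50.3 to 86.8 TPM, so epidermis, dermis, muscle, fat and immune cells were all represented in both groups. The libraries were alike in general measures: between 18768 and 19061 genes reached 0.3 TPM, and mitochondrial transcripts took between 5.21% and 6.18% of the total.

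With the limma test on log2(TPM + 0.1), 78 genes were higher and 212 lower in the CAP group with p below 0.05 before adjustment and a change of 2-fold or more, which is 0.426% and 1.16% of the genes tested. Below, a gene is called higher or lower, or is said to have risen or fallen, only where it passed this threshold. After Benjamini-Hochberg adjustment of the limma p-values 3 genes passed 0.05, or 0.0164%, and all 3 encode hemoglobin chains (Hba-a1, Hba-a2 and Hbb-bt). Of the 78 higher genes 6 belonged to the erythroid list, and of the 212 lower genes 48 belonged to the interferon response list, which left 164 lower genes outside both lists. The smallest adjusted p outside the erythroid list was 0.14 among higher genes and 0.0979 among lower genes, so none of the genes described below passed the adjusted threshold. Members of the lists that are named below without having passed the threshold were in part chosen after their values were seen. Between 3 libraries and 3, the exact permutation test of a single gene cannot go below a two-sided p of 0.1, which every gene with non-overlapping groups reaches.

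**Figure D1:**
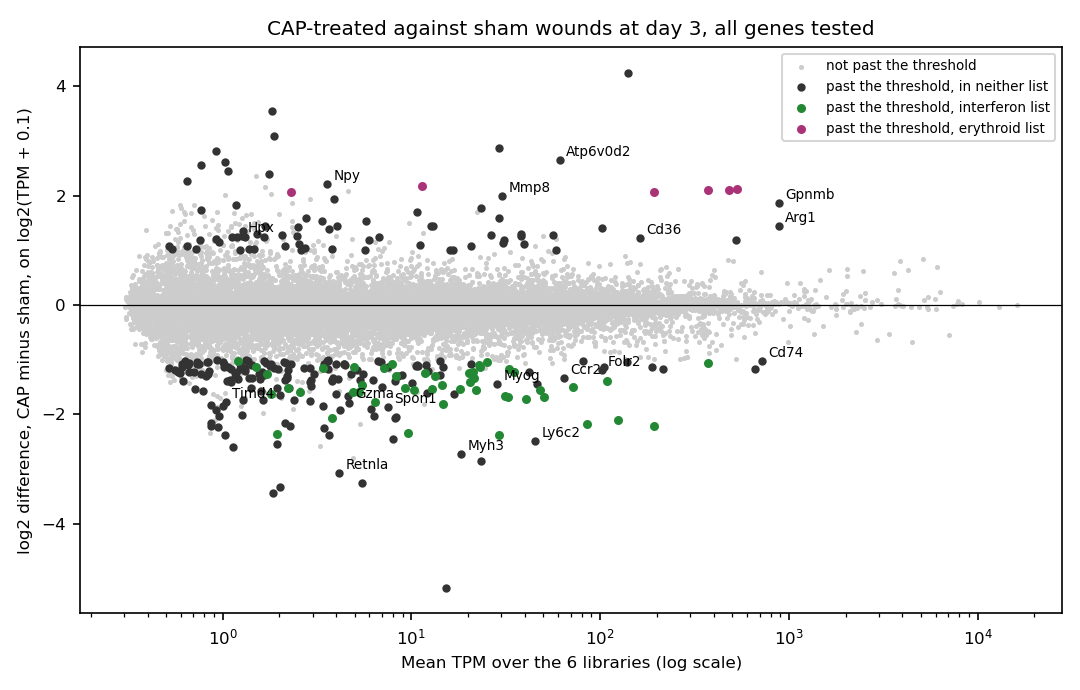
Each point is one of the 18330 tested genes, with the mean TPM of the 6 libraries on the x axis (log scale) and the log2 difference, CAP minus sham, on the y axis; large points passed the threshold, green for the interferon list, purple for the erythroid list and black for neither. The 212 lower genes outnumber the 78 higher ones, and the labelled points are genes described in the text.

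Of all genes tested, 62.2% had a log2 difference below 0 and the median was -0.05, which is the level against which the lists below are read. The first CAP library was the CAP library nearest to the sham group for 55 of the 78 higher and 141 of the 212 lower genes. The part of this difference between the CAP libraries in each result was not tested, but counts without that library are given where they differ.

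**Figure D2:**
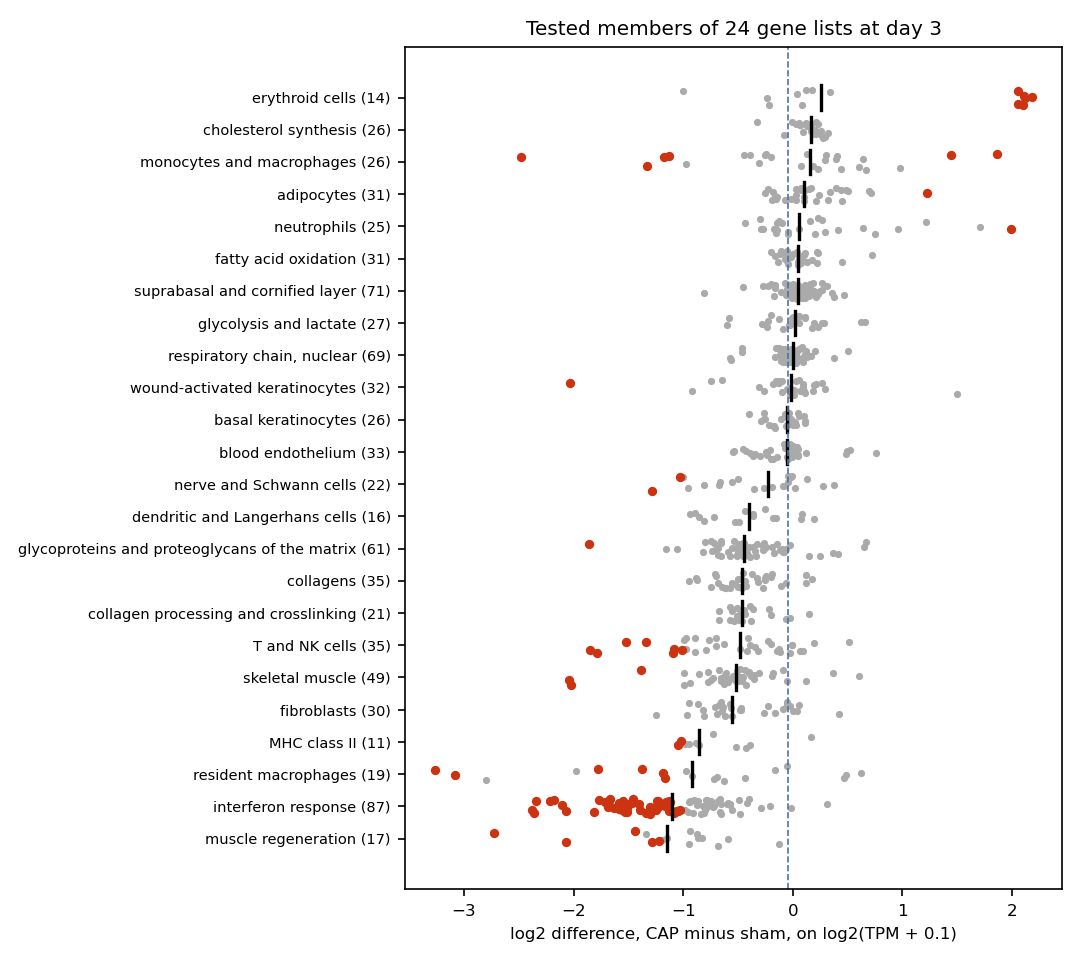
For each of 24 gene lists (number of tested members in parentheses), points are the log2 differences of its members (CAP minus sham, x axis), the black bar is their median, the dashed line the median of all genes, and red points passed the threshold. Muscle regeneration (-1.15), interferon response (-1.10) and resident macrophages (-0.92) have the lowest medians, while keratinocyte and energy metabolism lists lie near 0.

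Among lymphocyte genes, the killing proteases Gzma and Gzmb and the natural killer (NK) cell receptor Ncr1 were lower, while the CD3 chains did not pass the threshold. The list of T and NK cells held 35 tested genes, of which 7 were lower and 0 higher, beside a background of 1.16% lower. Its median was -0.49, with 31 members below 0, beside 62.2% of all genes. In 15 of the 35, every CAP library lay below every sham library, which was so for 8.75% of all genes. The summed TPM of the list overlapped, at 124, 148 and 149 in sham and 128, 87.2 and 87.5 in CAP. The count of lower members was 11 without the first CAP library, 5 without the second and 2 with a pseudocount of 1 TPM.

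Gzmb, granzyme B, a serine protease that killer cells deliver into their targets, measured 4.51, 5.30 and 6.04 TPM in the sham libraries and 2.48, 0.783 and 1.33 TPM in the CAP libraries. All 3 CAP values lay below all sham values, and the first CAP library was the highest of them. The difference was -1.85 ± 0.39 (log2 ± SE, n = 3 and 3; limma adjusted p = 0.5) and it passed the threshold in all 11 alternative settings. Its partner Gzma, granzyme A, went from 5.71, 9.02 and 7.11 TPM to 2.02, 1.5 and 2.68 TPM, again without overlap (-1.78 ± 0.26, limma adjusted p = 0.5). Ncr1, the activating receptor NKp46 of NK cells, measured 2.09, 1.58 and 2.79 TPM in sham and 0.665, 0.567 and 0.776 TPM in CAP (-1.52 ± 0.29, limma adjusted p = 0.5). Here the 3 CAP libraries were alike and the groups did not overlap, although with a pseudocount of 1 TPM the difference missed the 2-fold mark. Trac, the constant part of the T cell receptor alpha chain, was lower by -1.34 on the log2 scale, and Il2ra, the high-affinity interleukin-2 receptor chain CD25, by -1.09. The other lower members were Cd2, an adhesion receptor of T and NK cells, at -1.01 and the chemokine Ccl5 at -1.09.

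Members of the list near or above 0 included some T cell genes, although Trac and Cd2, which T cells also carry, were lower. Cd3e, a signalling chain of the T cell receptor complex, measured 5.18, 7.65 and 7.39 TPM in sham and 6.62, 5.95 and 7.34 TPM in CAP. The groups overlapped in full, and the log2 difference was -0.01. Cd3g, another chain of that complex, differed by 0.19 and the costimulatory receptor Cd28 by 0.07. The list of gamma-delta T cells, which in mouse skin include the dendritic epidermal T cells, had 8 tested genes, none past the threshold, and a median of 0.03. Of 6 tested B cell genes none passed: Ighm, the heavy chain of IgM, differed by -0.92 and Cd22, an inhibitory receptor of B cells, by 0.96.

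The antigen-presentation genes of MHC class II lay at the edge of the threshold, with all but Ctss below 0. Of 11 tested MHC class II genes 2 were lower, 10 had a log2 difference below 0, and in 10 every CAP library lay below every sham library. The shares over all genes were 1.16%, 62.2% and 8.75%. The summed TPM of the list overlapped, at 4764, 3589 and 4650 in sham and 3437, 2882 and 4806 in CAP. The list's median was -0.85. Cd74, the invariant chain that escorts class II molecules, measured 1057, 814 and 986 TPM in sham and 657, 368 and 423 TPM in CAP, without overlap (-1.02 ± 0.23, limma adjusted p = 0.5). One of its exons overlaps the microRNA gene Mir5107, and reads of the pair may not be separable. H2-Ob, which modulates peptide loading in B cells and other presenting cells, was the other lower gene (-1.05). The class II chains themselves, H2-Aa at -0.99, H2-Eb1 at -0.94 and H2-Ab1 at -0.88, missed the 2-fold mark. With median-ratio scaling of the libraries, or without the third CAP or the first sham library, 0 members passed, and without the first CAP or the second sham library 5 did. Ctss, a protease that trims the invariant chain, differed by 0.16. In the dendritic and Langerhans cell list none of 16 tested genes passed and the median was -0.40.

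Macrophage genes moved in both directions. Folr2, Cbr2 and Ccr2 were among the lower ones, and Gpnmb and Arg1 were higher. Of 19 tested genes in the resident macrophage list 6 were lower and 0 higher, with a median of -0.92 and 16 members below 0. Over all genes, 1.16% were lower and 62.2% had a log2 difference below 0. The count of lower members was 10 without the first CAP library and 4 without the second CAP or the first sham library. Folr2, a folate receptor that marks resident macrophages, measured 151, 115 and 156 TPM in sham and 78.5, 42.4 and 69.5 TPM in CAP (-1.18 ± 0.24, limma adjusted p = 0.5). The groups did not overlap, and without the second CAP library the gene missed the threshold. Cbr2, a carbonyl reductase abundant in the same cells, measured 343, 223 and 317 TPM in sham and 191, 82.7 and 137 TPM in CAP (-1.16 ± 0.31, limma adjusted p = 0.562). Vsig4, a complement receptor, fell from 1.42, 1.35 and 2.03 TPM to 0.591, 0.310 and 0.847 TPM. Timd4, a receptor for phosphatidylserine on dying cells, fell from 1.73, 1.36 and 1.91 TPM to 0.445, 0.363 and 0.427 TPM (log2 -1.78). Both stood at a low level and missed the threshold with a pseudocount of 1 TPM.

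Retnla, a secreted product of alternatively activated macrophages, measured 5.06, 9.37 and 5.90 TPM in sham and 1.39 and 3.17 TPM in the first and the third CAP library, and was listed at 0 in the second. The groups did not overlap, and the fitted difference of -3.08 ± 1.19 depends on how a listed 0 is treated: it was -1.59 without the second CAP library and -4.11 without the third. Cd209f, a lectin of the DC-SIGN family, was the sixth lower gene of the list and was also listed at 0 in that library. The list did not move as a block: Mrc1, the mannose receptor CD206, differed by -0.05, and Selenop, a selenium-transport protein and the most abundant member, by 0.62. The summed TPM of the list was therefore not lower, at 3877, 2988 and 3743 in sham and 3435, 4178 and 4872 in CAP. Both Siglec1, the sialoadhesin CD169, and Fcrls, an Fc receptor-like molecule, were chosen after their values were seen. Siglec1 measured 70.7, 62.0 and 65.8 TPM in sham and 40.1, 14.5 and 24 TPM in CAP (-1.45 ± 0.33, limma adjusted p = 0.5), and Fcrls was lower by -1.93. Both passed the threshold in all 11 alternatives.

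Of the 26 tested genes in the monocyte and macrophage list, 4 were lower and 2 higher, beside 1.16% and 0.426% of all genes. The median was 0.16. In 2 of the 26 every CAP library lay above every sham library, which was so for 2.86% of all genes, and in 6 every CAP library lay below, beside 8.75%. Without the third CAP library the median turned to -0.11. Ccr2, the chemokine receptor by which monocytes leave the bone marrow, measured 107, 78.0 and 91.3 TPM in sham and 49.2, 34.4 and 28.2 TPM in CAP. Every CAP library was well below every sham library (-1.33 ± 0.22, limma adjusted p = 0.5), and the gene passed in all 11 alternatives. Plac8, a protein of myeloid and lymphoid cells, was near 141 to 144 TPM in each sham library and at 91.4, 53.8 and 56.5 TPM in CAP (-1.13 ± 0.20, limma adjusted p = 0.5). Ly6c2, the surface antigen of inflammatory monocytes, measured 53.9, 87.0 and 79.8 TPM in sham and 30.4, 16.5 and 4.16 TPM in CAP (-2.48 ± 0.67, limma adjusted p = 0.562). The third CAP library was lowest, and the difference was -1.68 without it and -3.10 without the first. Of the 31-base stretches of Ly6c2, 23.7% also occur in other genes such as Ly6c1, so reads may be shared. Cx3cr1, the fractalkine receptor, was lower by -1.17.

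Genes that most macrophages carry did not pass the threshold. Adgre1, which encodes F4/80, differed by 0.13, Csf1r, the receptor for the growth factor CSF-1, by -0.25, and Cd68, a lysosomal glycoprotein, by 0.40. C1qa, a chain of complement C1q, differed by -0.98 (limma adjusted p = 0.5) and so stood just short of 2-fold.

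**Figure D3:**
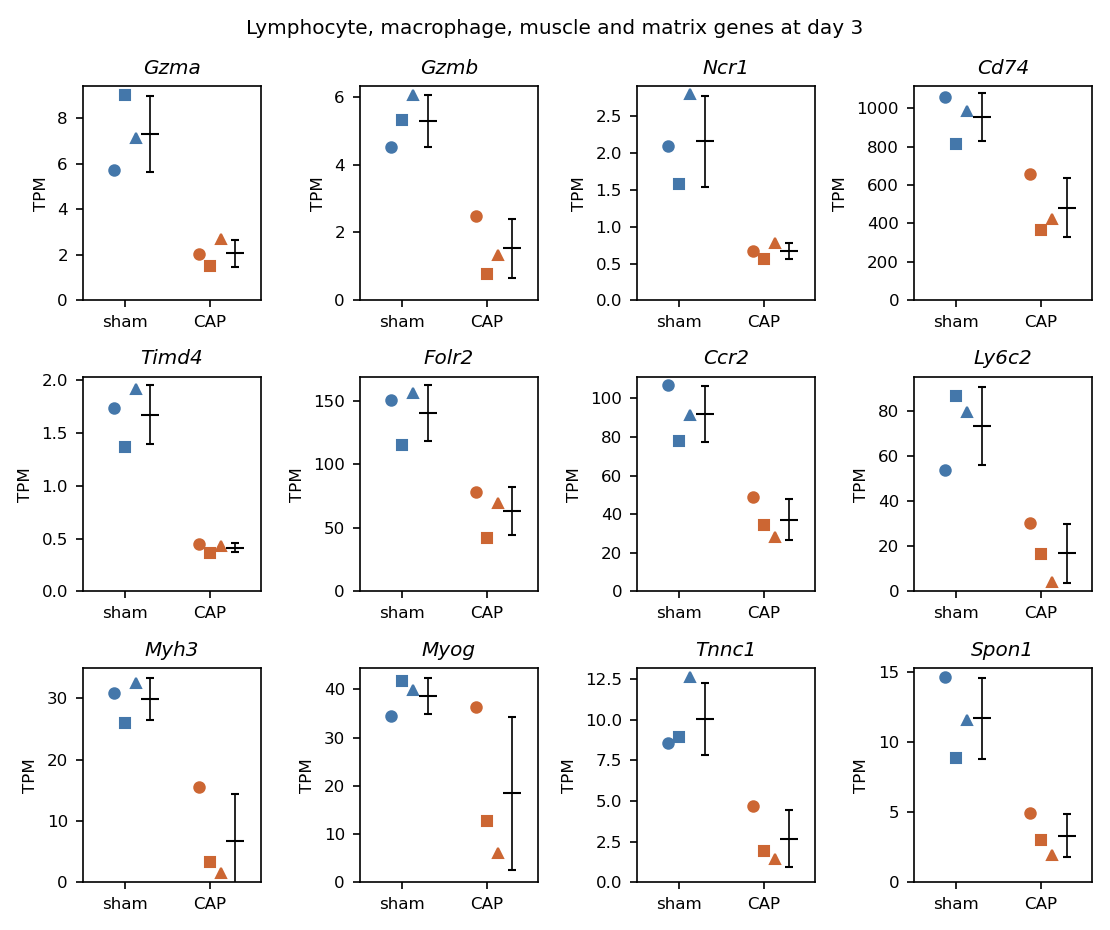
TPM in each library (y axis, linear from 0) for 12 lower genes; the circle, square and triangle are replicates 1, 2 and 3 of each group, and the black bar is the mean ± SD, with n = 3, cut off at 0 for Myh3. In Gzmb, Myh3, Myog and Tnnc1 the first CAP library is the highest of the CAP group, as for Myh3 at 15.5 TPM beside 3.33 and 1.61 TPM.

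The higher genes of the monocyte and macrophage list were Gpnmb and Arg1, and several other higher genes had the same order of CAP libraries. Gpnmb, a transmembrane glycoprotein of lipid-loaded macrophages, measured 286, 318 and 354 TPM in sham and 456, 1287 and 2643 TPM in CAP. The groups did not overlap, and the ratio of the group means was 4.58 (log2 1.86 ± 0.57, limma adjusted p = 0.643). Atp6v0d2, a subunit of the proton pump of lysosomes that is abundant in osteoclasts and some macrophages, measured 7.61, 16.2 and 12.9 TPM in sham and 21.3, 80.2 and 230 TPM in CAP. Its ratio of means was 9.03 (log2 2.64 ± 0.80, limma adjusted p = 0.626), and both genes passed in all 11 alternatives. Their size depended on single libraries: without the third CAP library the log2 difference was 1.27 for Gpnmb and 1.82 for Atp6v0d2, and without the first it was 2.54 and 3.53. Tm4sf19, a tetraspan membrane protein, followed the same order of libraries, at 3.73, 5.01 and 4.82 TPM in sham and 7.90, 13.7 and 29.5 TPM in CAP (1.69 ± 0.44).

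Cd36, a scavenger receptor that takes up fatty acids and oxidised lipoproteins, measured 75.9, 97.4 and 94.3 TPM in sham and 111, 206 and 394 TPM in CAP (1.23 ± 0.42, limma adjusted p = 0.692). The groups did not overlap. Cd36 was the only higher gene among 31 tested genes of the adipocyte list, and Adipoq itself overlapped between the groups with a difference of 0.10 (95% interval -0.97 to 1.17). Plin2, the coat protein of lipid droplets, was chosen after its values were seen: it measured 274, 251 and 344 TPM in sham and 299, 788 and 1176 TPM in CAP (1.18), and its groups overlapped through the first CAP library. F7, coagulation factor VII, and Il7r, the interleukin-7 receptor, were picked in the same way and were higher by 1.40 and 1.58. Il7r reached 92.8 TPM in the third CAP library beside 15.5 TPM in the first, and its difference was 0.89, short of the threshold, without the third and 2.18 without the first.

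Arg1, arginase 1, which consumes arginine and is abundant in wound macrophages, measured 681, 341 and 322 TPM in sham and 523, 1390 and 2057 TPM in CAP (1.44 ± 0.53, limma adjusted p = 0.719). The first CAP library lay inside the sham range. Arg1 missed the threshold in 6 of the 11 alternatives. Ftl1, a ferritin subunit that stores iron, had its highest values in the same libraries, at 7041 and 11670 TPM in the second and the third CAP library against 3299 to 5157 TPM in sham, but its difference was 0.69 with a 95% interval from -0.23 to 1.62, and it shares 57.7% of its 31-base stretches with pseudogenes and other genes.

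Hvcn1, a voltage-gated proton channel of phagocytes, measured 13.1, 12.3 and 13.5 TPM in sham and 18.1, 30.6 and 36.6 TPM in CAP (1.07). Syngr1, a membrane protein of vesicles, measured 17.5, 18.9 and 19.0 TPM in sham and 26.7, 40.8 and 61.7 TPM in CAP (1.14). In both the sham libraries were close together, the CAP libraries were spread, and the groups did not overlap. Pianp, which binds the paired receptor PILR-alpha, was higher by 1.01, and Eya1, a transcriptional coactivator and phosphatase, by 1.02. Tmem82 was higher by 1.11 and H2-M9 by 1.27. These protein-coding genes were also named by the rule, and their groups did not overlap. Pianp ranged from 9.0 to 12.3 TPM in sham and from 12.6 to 27.3 TPM in CAP, and it passed the threshold in 6 of the 11 alternatives.

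Hpx, hemopexin, a plasma protein that binds free heme, had even values over the CAP libraries. It measured 0.709, 0.663 and 0.719 TPM in sham and 1.66, 1.74 and 2.06 TPM in CAP (1.27 ± 0.23, limma adjusted p = 0.5). The groups stood apart at a low level, and with a pseudocount of 1 TPM the difference missed 2-fold. Gm13306 measured 10.5, 4.63 and 6.22 TPM in sham and 67.9, 45.0 and 40.9 TPM in CAP (2.88 ± 0.32, limma adjusted p = 0.14). Its value is uncertain, since 80.6% of its 31-base stretches are found in other genes, among them the chemokine genes Ccl27a and Ccl27b.

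Of 25 tested neutrophil genes 1 was higher and 0 lower, beside 0.426% and 1.16% of all genes. The median was 0.06, and the summed TPM of the list overlapped between the groups. The higher gene was Mmp8, the neutrophil collagenase, at 27.0, 7.18 and 7.60 TPM in sham and 32.0, 53.6 and 55.0 TPM in CAP (1.99 ± 0.52, limma adjusted p = 0.539). The first sham library was far above the other sham libraries and close to the first CAP library, and without it the difference was 2.61 and 7 genes of the list passed. Of 6 tested platelet genes 2 were higher, beside 0.426% of all genes. Ppbp, the platelet basic protein, measured 33.8, 12.2 and 13.3 TPM in sham and 47.6, 54.0 and 25.6 TPM in CAP (1.19), with overlap, and Treml1, a receptor of platelet granules, was higher by 1.24. Leaving out any library left at most 1 of the 6 genes higher.

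**Figure D4:**
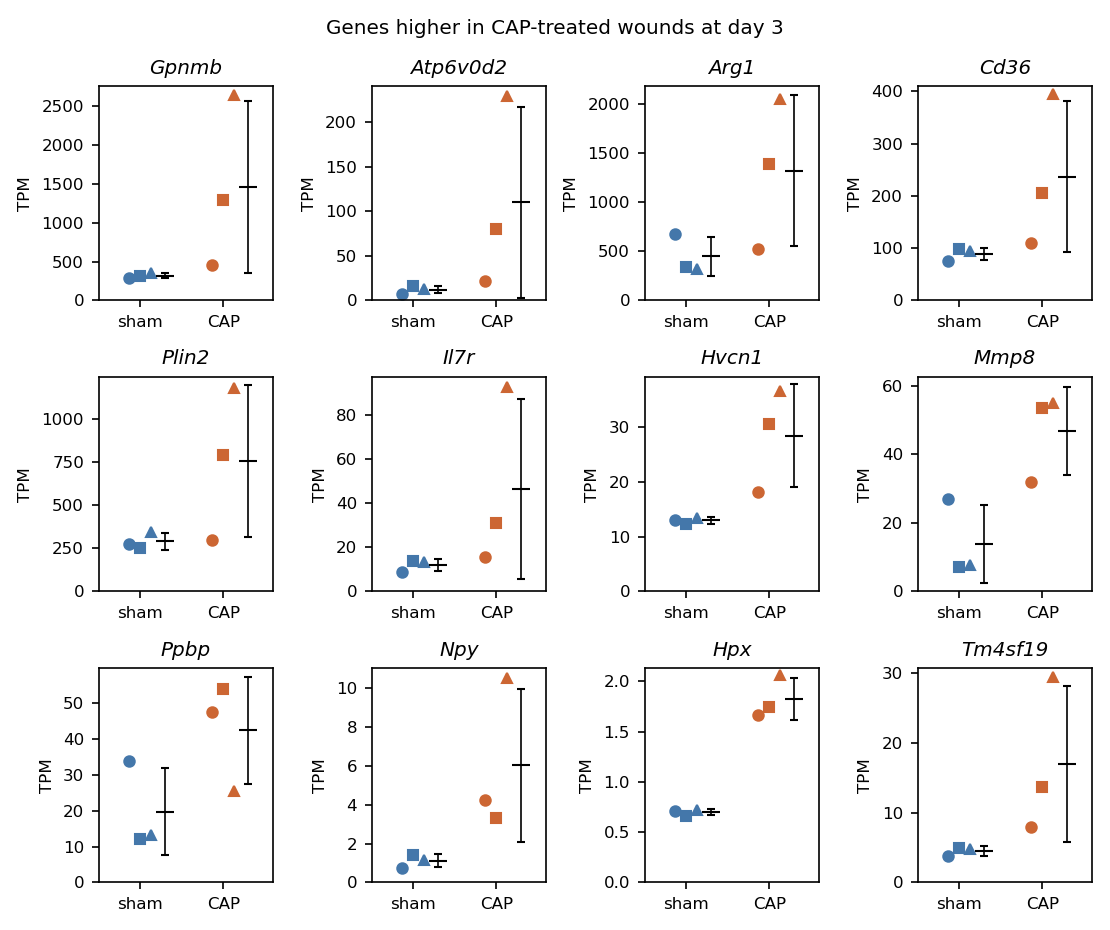
TPM in each library (y axis, linear from 0) for 12 higher genes; the circle, square and triangle are replicates 1, 2 and 3 of each group, and the black bar is the mean ± SD, with n = 3. Gpnmb, Atp6v0d2 and Cd36 are highest in the third CAP library, at 2643, 230 and 394 TPM, whereas Hpx is even over the CAP libraries at 1.66 to 2.06 TPM.

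The muscle regeneration list had the lowest median of the 42 lists. When muscle is injured, satellite cells multiply, fuse and build new fibres, which for a time carry embryonic and cardiac forms of the contractile proteins. Of 17 tested genes of this regeneration programme 5 were lower and 0 higher, and all 17 had a log2 difference below 0. Over all genes, 1.16% were lower and 62.2% had a difference below 0. The median was -1.15, against -0.05 for all genes. The summed TPM of the list was 224, 244 and 260 in sham and 228, 91.0 and 54.5 in CAP. By this sum the first CAP library lay within the sham range. The starts of Myh3 and Tnnt2 from this list, and of Tnni1 from the list of mature muscle described further on, are shown because the myogenic factors MyoD and myogenin bind E-boxes, of which CAGCTG is one form. Each window runs from 250 bases before to 50 bases after a RefSeq start site in GRCm38.p6, on the plus strand, with every CAGCTG in capitals. They are Myh3 at chr11:67078050-67078349, Tnni1 at chr1:135799171-135799470 and Tnnt2 at chr1:135836084-135836383.
Myh3: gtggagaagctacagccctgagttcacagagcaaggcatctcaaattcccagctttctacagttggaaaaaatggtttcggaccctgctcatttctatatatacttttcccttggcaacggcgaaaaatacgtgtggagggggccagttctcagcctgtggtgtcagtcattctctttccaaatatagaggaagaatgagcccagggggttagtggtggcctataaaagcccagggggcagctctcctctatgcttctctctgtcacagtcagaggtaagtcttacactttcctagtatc
Tnni1: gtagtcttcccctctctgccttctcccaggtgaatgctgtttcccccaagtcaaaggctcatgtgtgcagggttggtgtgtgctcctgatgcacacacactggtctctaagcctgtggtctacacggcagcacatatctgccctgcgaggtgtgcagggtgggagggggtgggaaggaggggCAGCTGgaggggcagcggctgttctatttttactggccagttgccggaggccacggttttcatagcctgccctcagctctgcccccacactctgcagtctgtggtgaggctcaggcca
Tnnt2: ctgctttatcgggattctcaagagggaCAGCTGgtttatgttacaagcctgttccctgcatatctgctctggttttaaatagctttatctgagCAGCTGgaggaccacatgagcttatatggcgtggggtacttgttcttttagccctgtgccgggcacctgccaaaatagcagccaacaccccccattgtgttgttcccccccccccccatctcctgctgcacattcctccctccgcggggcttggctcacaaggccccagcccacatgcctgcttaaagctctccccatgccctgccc
The motif reads the same on both strands. It occurred in 16.3% of the 32851 promoters of the table. Of the 8 lower genes of both muscle lists, 6 had a promoter entry, with 8 windows among them. The motif was found in 2 of the genes (Tnni1 and Tnnt2), in 3 windows of which the pair of Tnni1 windows share the same site. The other Tnnt2 window, at chr1:135836739-135837038, held no CAGCTG. Mymk and Ncam1 were the genes without an entry.

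Myh3, the embryonic myosin heavy chain, whose window above held no CAGCTG, measured 30.9, 26.0 and 32.6 TPM in sham and 15.5, 3.33 and 1.61 TPM in CAP. All CAP libraries lay below all sham libraries, the first by much less than the others (-2.72 ± 0.73, limma adjusted p = 0.562), and the gene passed in all 11 alternatives. Other myosin genes hold 11.1% of its 31-base stretches, among them Myh2 and Myh8. Tnnt2, the cardiac form of troponin T, measured 46.9, 43.7 and 52.3 TPM in sham and 34.4, 22.8 and 10.6 TPM in CAP (-1.22). Mymk, the membrane protein myomaker that drives fusion, measured 11.5, 12 and 13.2 TPM in sham and 9.15, 2.34 and 1.03 TPM in CAP (-2.07). In both the groups did not overlap and the first CAP library was nearest to sham. Without the third CAP library the difference was -2.02 for Myh3 and -1.38 for Mymk, and without the first it was -3.62 and -2.89.

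Myog, the transcription factor myogenin, measured 34.5, 41.7 and 39.9 TPM in sham and 36.4, 12.8 and 6.10 TPM in CAP (-1.44), and here the first CAP library lay within the sham range. Without the third CAP library Myog missed the threshold at -0.84, and without the first it was at -2.12. Ncam1, an adhesion molecule of regenerating fibres and of Schwann cells, measured 16.0, 11.9 and 9.41 TPM in sham and 9.20, 3.66 and 3.54 TPM in CAP (-1.29). Myod1, the determination factor of muscle, differed by -0.94 and Pax7, the factor of satellite cells, by -0.82, and neither passed. The count of 5 lower members became 15 without the first CAP library, with a median of -1.60. It was 3 without the second CAP, the third CAP or the first sham library, and 2 without the third sham library. Actc1, cardiac actin, which also appears in new fibres, was chosen after its values were seen and measured 41.5, 29.7 and 42.5 TPM in sham and 21.1, 3.12 and 1.93 TPM in CAP (-2.86 ± 0.81), with -2.18 without the third CAP library and -3.88 without the first.

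Genes of mature muscle fibres formed a separate list. Of 49 tested genes 3 were lower and 0 higher, and 46 had a log2 difference below 0. Over all genes, 1.16% were lower and 62.2% had a difference below 0. The median of the list was -0.52. The summed TPM was 9097, 10974 and 7537 in sham and 10719, 6214 and 4059 in CAP, so the first CAP library lay among the sham libraries. The lower genes are forms known from slow and cardiac muscle. Tnnc1, troponin C of slow and cardiac muscle, measured 8.58, 8.92 and 12.6 TPM in sham and 4.66, 1.95 and 1.41 TPM in CAP (-2.02 ± 0.42, limma adjusted p = 0.5). Tnni1, the slow troponin I, measured 14.5, 10.9 and 12.6 TPM in sham and 7.49, 2.41 and 1.44 TPM in CAP (-2.04 ± 0.54, or -2.69 without the first CAP library). Both passed in all 11 alternatives, without overlap. Casq2, a calcium-binding protein of the sarcoplasmic reticulum, was lower by -1.39 and missed the threshold at -0.80 without the third CAP library. Acta1, the main actin of mature fibres, differed by -0.49 (95% interval -1.38 to 0.40). Without the first CAP library 13 members were lower and the median was -0.87, whereas without the third CAP library it was -0.18. How much muscle each piece of tissue contained was not measured, and its part in these values was not tested.

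Collagen and other matrix genes lay below 0 by a small amount, most of them without passing the threshold. Of 35 tested collagen genes none passed the threshold. Yet 32 had a log2 difference below 0 and 10 had a limma p under 0.05, beside 62.2% and 6.6% of all genes. The median was -0.46. Col1a2, the second chain of type I collagen, measured 4216, 2916 and 3563 TPM in sham and 2265, 1796 and 2824 TPM in CAP (-0.64, 95% interval -1.19 to -0.10), with no overlap but a narrow gap. Col1a1 differed by -0.68 (-1.33 to -0.04) and Col3a1, the fibrillar collagen of early wounds, by -0.55 (-1.20 to 0.09), and in both the groups overlapped. Leaving out the first or the third CAP library or the second sham library brought 2 collagens past the threshold.

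The genes that process and fold collagen lay in the same range. Of 21 tested none passed, 20 were below 0, beside 62.2% of all genes, and the median was -0.46. Serpinh1, the collagen chaperone HSP47, differed by -0.67, Pcolce, an enhancer of procollagen cleavage, by -0.49, and Lox, the enzyme that starts collagen crosslinks, by -0.43. Of 61 tested matrix glycoproteins and proteoglycans 1 was lower and 55 were below 0, beside 1.16% and 62.2% of all genes. Their median was -0.44. The lower gene was Spon1, F-spondin, an adhesion protein of the matrix. It measured 14.6, 8.86 and 11.6 TPM in sham and 4.96, 3.04 and 1.94 TPM in CAP, without overlap (-1.86 ± 0.35, limma adjusted p = 0.5), and passed in all 11 alternatives. Of 44 tested matrix proteases and inhibitors only Mmp16, a membrane-bound metalloprotease at a low level, passed (-1.22), and it did so in 5 of 11 alternatives.

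Fibroblast marker genes also lay below 0 in the main, and none passed the threshold. Of 30 tested genes 27 were below 0 and 14 had a limma p under 0.05, beside 62.2% and 6.6% of all genes. The median was -0.56. The summed TPM of the list was 4180, 4292 and 4646 in sham and 3325, 2645 and 3504 in CAP, without overlap. Pi16, a marker of the adventitial fibroblasts from which others derive, differed by -0.95, Dpp4, the surface protease CD26 of upper and fascial fibroblasts, by -0.71, and Twist1, a transcription factor of mesenchymal cells, by -0.69. Ly6a, which encodes Sca-1, differed by -0.82, and 31.9% of its 31-base stretches also occur elsewhere. Pdgfra, the receptor carried by most skin fibroblasts, differed by -0.05 and Cxcl12, a chemokine of stromal cells, by 0.42. Without the first CAP library 3 members were lower. None of 20 tested myofibroblast genes passed, with a median of -0.25.

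**Figure D5:**
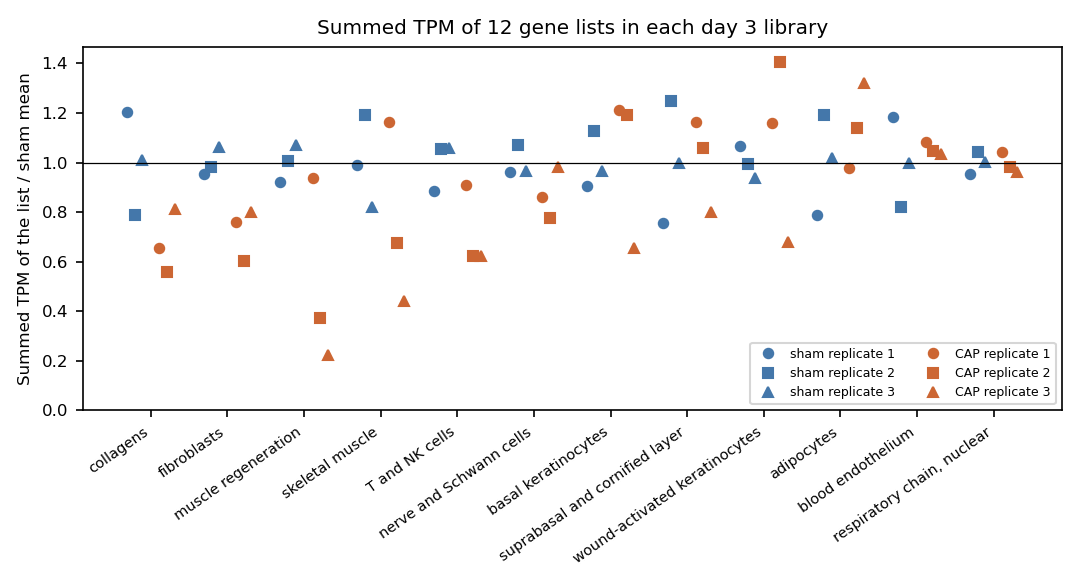
Summed TPM of 12 gene lists in each library, divided by the mean of the 3 sham libraries (y axis), with sham in blue and CAP in orange and the marker shape giving the replicate. The fibroblast sums do not overlap between the groups (4180 to 4646 TPM against 2645 to 3504 TPM before division). Those of collagens, muscle regeneration, skeletal muscle, T and NK cells and basal keratinocytes do.

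Of the keratinocyte lists, 1 gene passed the threshold. Of 26 tested basal keratinocyte genes none passed, 0 had a limma p under 0.05 and the median was -0.05. Krt14 measured 14894, 17697 and 15138 TPM in sham and 19783, 20003 and 10069 TPM in CAP. The CAP libraries lay on both sides of the sham libraries, and the interval of the difference ran from -0.83 to 0.83. Krt5, the partner of Krt14, had an interval from -0.84 to 0.70, so these libraries do not exclude a difference of up to about that size in either direction. Of 71 tested suprabasal and cornified-layer genes 0 passed or had a limma p under 0.05, and the median was 0.05. Krt10, the keratin of differentiating cells, measured 4187, 10978 and 7995 TPM in sham and 8668, 6700 and 5993 TPM in CAP (-0.03, -0.93 to 0.88).

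Keratins that are switched on at wound edges were likewise close: Krt6a differed by 0.07, Krt16 by 0.10 and Krt17 by 0.10. Of 32 tested genes of this wound-activated group 1 was lower. That gene was Krt8, a keratin of simple epithelia, at 1.36, 1.65 and 1.48 TPM in sham and 0.989, 0.205 and 0.0795 TPM in CAP (-2.03, or -2.77 without the first CAP library), without overlap. It stood at a low level, and 32.3% of its 31-base stretches also occur elsewhere. None of 25 tested hair genes passed, with a median of -0.05, nor did any of 12 sebaceous and sweat gland genes (median -0.54).

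Metabolic genes were nearly level. None passed among 22 tested genes of fatty acid synthesis, 31 of fatty acid oxidation, 27 of glycolysis, 23 of the citric acid cycle, 69 of the respiratory chain and 13 of the mitochondrial genome. Their medians were -0.02, 0.05, 0.02, -0.05, -0.00 and -0.02. Pkm, pyruvate kinase, measured 1950, 1719 and 1647 TPM in sham and 1761, 1832 and 1712 TPM in CAP, with an interval of the log2 difference from -0.31 to 0.31. Atp5b, a catalytic subunit of ATP synthase, had one from -0.37 to 0.23. These intervals are narrower than the median half-width of 0.43 over all genes. Among 26 tested genes of cholesterol synthesis and uptake none passed, but 23 were above 0, beside 37.8% of all genes, and the median was 0.17. None of the 26 had a limma p under 0.05, and in none did every CAP library lie above every sham library. The summed TPM of the list overlapped, at 1198, 1718 and 1388 in sham and 1823, 1823 and 1222 in CAP. Hmgcs1, an early enzyme of that pathway, differed by 0.22 and Fdps, which makes farnesyl diphosphate, by 0.24. None of 50 tested cell cycle genes passed, with 46 below 0, beside 62.2% of all genes, and a median of -0.17.

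The receptor of capsaicin was at the limit of what the libraries show. Trpv1 measured 0.211, 0.151 and 0.0599 TPM in sham, 0.0463 and 0.195 TPM in the first and second CAP libraries, and was listed at 0 in the third, so it lay below the filter of 0.3 TPM and was not tested. The cell bodies of sensory neurons lie outside the skin. Of its relatives with wider tissue distribution, Trpv2 differed by 0.24, Trpv3, a channel of keratinocytes, by 0.01 and Trpv4 by -0.08. Of 14 tested genes for receptors and neuropeptides 1 was higher and 1 lower, beside 0.426% and 1.16% of all genes. Calca and Tac1, which encode the sensory peptides CGRP and substance P, were below the filter.

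Npy, the precursor of neuropeptide Y, best known from sympathetic nerves, measured 0.740, 1.40 and 1.18 TPM in sham and 4.22, 3.34 and 10.6 TPM in CAP. All CAP libraries were above all sham libraries, with the third of them highest (2.21 ± 0.46, limma adjusted p = 0.5), and the ratio of means was 5.46. Gal, the precursor of galanin, a peptide of sensory neurons that increases after nerve injury, measured 4.14, 4.51 and 3.97 TPM in sham and 2.27, 1.01 and 1.51 TPM in CAP. The sham libraries were tightly grouped and the groups did not overlap (-1.41 ± 0.29, limma adjusted p = 0.5). Both genes passed in all 11 alternatives.

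Of 22 tested genes of nerve and Schwann cells 2 were lower, among them Ncam1, beside 1.16% of all genes. The median was -0.23. Prx, periaxin, a protein of peripheral myelin, differed by -0.67.

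No gene passed among 33 tested genes of blood endothelium, 7 of lymphatic endothelium, 12 of mast cells, 5 of melanocytes, 39 of the oxidative stress response, 26 immediate early genes and 19 of the circadian clock. Their medians were -0.06, 0.08, 0.01, 0.19, 0.06, -0.10 and 0.01.

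For the genes named above, day 6 was read as a description only, since they were chosen on their day 3 values. Myh3 measured 2.29, 8.87 and 14.3 TPM in the day 6 sham libraries and 0.917, 0.564 and 1.91 TPM in the day 6 CAP libraries, and Tnnc1 measured 1.64, 5.15 and 9.04 TPM and 0.478, 0.664 and 1.02 TPM. In both, all CAP libraries were below all sham libraries at day 6 as well. Gpnmb, in contrast, measured 993, 1416 and 1875 TPM in sham and 455, 367 and 2014 TPM in CAP at day 6. Gzma measured 4.94, 4.89 and 6.37 TPM in sham and 9.99, 2.59 and 5.86 TPM in CAP at that day. The groups overlapped in both. The log2 difference of Gpnmb was -0.99 at day 6, against 1.86 at day 3, and that of Gzma was -0.003 at day 6. Across 20267 genes tested for a different CAP effect at day 6 and day 3 in a limma fit of all 12 libraries, 2292 had an unadjusted p under 0.05 and 0 passed after adjustment.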

How the data were processed

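RNA was extracted from skin wounds and sequenced, per the labels, and reads were converted with bcl2fastq and trimmed with Trimmomatic 0.36; the build named there is mm10 (GRCm38), and the sources used here name no aligner or strand setting. The authors deposited 1 table of TPM values (a level corrected for gene length and library total) per library, with 0.0001 standing for 0. TPM keeps no counts, so the depth per library is unknown and no counting interval is given. A TPM value is a share of its library, so a large rise of a few genes lowers all others.

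The genes whose mean reached 0.3 TPM in each group were tested with limma 3.58.1 in R 4.3.3 (lmFit, eBayes with a trend) on log2(TPM + 0.1), which understates the change of low genes. A gene was called where its unadjusted p was below 0.05 and the groups differed 2-fold or more, and Benjamini-Hochberg adjustment was over all 18330 genes. Means and SDs used Python 3.11.15 with pandas 2.3.3 and numpy 2.4.6. The fit was tested on simulated data. Alternatives were a pseudocount of 1 TPM, no filter, median-ratio scaling, the replicate number as a block, a joint fit of all 12 libraries, and leaving out each library.

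The genes named were the 12 per direction with the smallest p among protein-coding called genes without overlap, outside the interferon and erythroid lists; up to 5 called members per list and direction; up to 3 of the highest members of a list without calls; and Trpv1 and the tissue markers. Others are named as examples of their list or were chosen after their values were seen. Some genes that the rule named are not reported here. The members, lists and rule were chosen with earlier results of these data known. No set test was run. Gene positions and biotypes came from GENCODE M21, in which 55227 of 55487 gene IDs were found, and promoters from RefSeq on GRCm38.p6. Shared sequence is the percentage of a gene's 31-base stretches that occur in another gene of that annotation.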

Additional observations from a re-analysis of the deposited data

How the results depend on the processing

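The main limit is the number of libraries: with 3 per group, the median 95% interval of a gene spans ± 0.43 on the log2 scale, and depth is unknown. The called genes that the rule named or that were chosen after their values were seen number 78, a different set from the 78 higher genes. All of them kept their direction in the 11 alternatives, and 29 of them passed the threshold in every one. The counts of 78 higher, 212 lower and 3 adjusted genes became 210, 358 and 0 with no filter (1622 at an unadjusted p under 0.05) and 43, 111 and 5 with a pseudocount of 1 TPM. The joint limma fit gave 72, 210 and 0 (1134 unadjusted), and median-ratio scaling gave 92, 179 and 3. Leaving out one library gave 55 to 150 higher, 159 to 394 lower and 0 to 53 adjusted genes, the highest of each without the first CAP library; 242 of the 290 calls remained without it, 154 without the second CAP library and 190 or 191 without any other. The cause was not tested. Deviations from the group means had correlations of -0.108, 0.0085 and 0.038 between same-numbered libraries. Between differently numbered libraries they ranged from -0.130 to 0.131. With 3 libraries per group, such correlations cannot show whether the numbers pair the samples. The replicate block gave 85 higher, 213 lower and 0 adjusted genes (1244 unadjusted), and among the named genes Arg1, Treml1 and Mmp16 missed the threshold.

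For the CAP effect at day 6 against day 3, 994 genes passed the threshold and 0 passed after adjustment, and these became 580 passing with a pseudocount of 1 TPM, and 8 adjusted with no filter and 4 with the replicate block. Leaving out one library gave 645 to 1765 and 0 to 1.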

Other observations

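Some values lie outside the groups described above and were chosen after they were seen. Cxcl13, a chemokine that attracts B cells, measured 15.8, 18.6 and 22.2 TPM in sham and 5.97, 12.5 and 10.1 TPM in CAP (log2 -1.03 ± 0.28, limma adjusted p = 0.563), without overlap. Igf2, insulin-like growth factor 2, which is abundant in growing muscle, measured 13.9, 13.6 and 14.4 TPM in sham and 11.6, 4.67 and 2.49 TPM in CAP (-1.42). Its first CAP library stood close to the sham libraries. Of the 31-base stretches of Igf2, 61.9% are also found in other genes, mainly Gm49394, whose exons overlap it on the same strand, and Igf2os lies on the other strand, so its value is uncertain. Rps28, a protein of the small ribosomal subunit, measured 198, 303 and 261 TPM in sham and 144, 161 and 63.3 TPM in CAP (-1.14), and it overlaps the gene Kank3 on the other strand.

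The genes with the most extreme fitted differences rested on libraries listed at 0 or on a single library. Mup11, of the major urinary protein family, measured 17.6, 24.2 and 26.0 TPM in sham and 24.2 TPM in the second CAP library, and was listed at 0 in the other CAP libraries (-5.17). Gm49909 measured 8.55, 0.749 and 192 TPM in sham and 220, 225 and 194 TPM in CAP (4.24), so one sham library stood at the level of the CAP group.

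Gapdh, a common reference gene of glycolysis, was listed at 43.2, 45.7 and 46.5 TPM in sham and 53.2, 52.6 and 52.8 TPM in CAP, a difference of 0.23. This level is far below Pkm and Aldoa, 2 other glycolytic genes, which were at 1647 TPM or more in every library. The processed copies Gapdh-ps15 and Gapdh-ps16 were listed at 94.8 to 119 TPM and 45.4 to 54.7 TPM, and 27.2% of the 31-base stretches of Gapdh also occur in other genes.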
